A study of Arabidopsis thaliana with 8 samples.

Results

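Of the 8 RNA-seq libraries of this study, 5 are described here: the 2 libraries of the last round, S2 (Col-0) and U2 (*TT2* OE), set against the 3 of the first round, M2 (Col-0), N2 (*MYB5* OE) and O2 (*TT2* OE). "Round" is a name for the runs of consecutive library codes and stands in no label. The rounds were chosen by the counts themselves, because hierarchical clustering of the log2 CPM (counts scaled to library size, per 1e6 counts) of all 8 libraries parted them into exactly these sets, with P2, Q2 and R2, whose codes lie between theirs, as a second round. Whatever differs between the rounds is therefore given as a description and without any test.

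All 5 libraries came from whole *Arabidopsis thaliana* seedlings, 6 days old, grown without treatment on half-strength MS agar in vitro at 22 °C under an 8 h photoperiod. S2 and M2 were made from wild-type Col-0, U2 and O2 from *TT2* OE seedlings and N2 from *MYB5* OE seedlings. In both overexpressors the CaMV 35S promoter, active in most plant tissues, drove an R2R3-MYB transcription factor. The labels do not say which transgenic line was used, whether libraries of a genotype came from separate cultures, how many seedlings were pooled, or at what date or hour seedlings were harvested. No round holds more than 1 library of a genotype, and the third holds none of *MYB5* OE, so that a round, its growth, its harvest and its library preparation cannot be told apart.

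Plants anticipate day and night through a circadian clock. Transcription factors made around dawn, CCA1 and LHY, repress genes whose products accumulate towards evening, the pseudo-response regulators (PRRs) follow each other through the day and repress *CCA1* and *LHY*, and the evening complex of ELF3, ELF4 and LUX closes the loop after dusk. In seedlings this oscillator times hypocotyl growth, chlorophyll synthesis, flowering signals and the nightly breakdown of starch.

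The evening element is the short sequence through which CCA1 and LHY are known to bind and repress evening genes. It was searched for in windows from 250 bases before to 50 bases after the annotated start of each gene, as its letters AAAATATCT or, on the other strand, AGATATTTT. Of the 28 clock genes examined below, 9 held it: 1 of 12 morning genes, 3 of 5 *PRR* genes and 5 of 11 evening genes. The following stretches, read from the RefSeq TAIR10.1 genome 5′ to 3′ along the gene's own strand with the element in capitals, show it before the starts of 5 genes that were lower in the third round and of *RVE7*, the only morning gene that held it. The stretch of *GRP7* holds a further match, left in lower case. Also holding the element but not printed are *PRR9*, higher in the third round, *GRP8*, lower, and *BOA*, not called by the rule given below.

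*TOC1*, chr5:24674782-24674850, plus strand: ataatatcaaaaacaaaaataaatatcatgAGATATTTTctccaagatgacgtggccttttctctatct

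*PRR5*, chr5:8358695-8358763, minus strand: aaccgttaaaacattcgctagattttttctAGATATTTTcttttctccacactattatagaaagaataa

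*LUX*, chr3:17182959-17183027, plus strand: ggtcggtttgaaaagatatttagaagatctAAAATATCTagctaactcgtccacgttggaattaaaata

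*FKF1*, chr1:25508423-25508491, plus strand: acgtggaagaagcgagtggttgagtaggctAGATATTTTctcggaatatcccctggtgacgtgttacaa

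*GRP7*, chr2:9266595-9266663, minus strand: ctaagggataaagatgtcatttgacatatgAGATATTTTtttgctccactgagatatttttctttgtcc

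*RVE7*, chr1:6308255-6308323, minus strand: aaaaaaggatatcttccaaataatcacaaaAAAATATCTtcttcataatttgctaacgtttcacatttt

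To see how far the rounds lay apart, the libraries were first compared over all genes. Total counts per library ran from 35496351 to 45266161 among the 5, and the 10 most abundant genes took 7.76% to 9.82% of them. Of 28496 genes in the deposited table, 19209 reached a mean of 0.5 CPM over the 5 libraries and were used. The root-mean-square difference in log2 CPM was 0.383 between S2 and U2 and 0.303 to 0.349 among the first-round libraries. Between the third and the first round it was 0.807 to 0.858, more than the spread within either. The rounds were chosen by clustering on these same distances, so a wider gap between than within them is built into that choice. The transgenes stood where the labels put them: *TT2* reached 508 CPM in U2 and 516 CPM in O2, against at most 0.314 CPM in libraries of other genotypes, and *MYB5* reached 283 CPM in N2.

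A gene was called when S2 over M2 (the Col-0 pair) and U2 over O2 (the *TT2* OE pair) both reached 2-fold in the same direction and both third-round libraries lay outside the range of the 3 first-round libraries. By this rule 674 genes were higher in the third round, 3.51% of those used, and 988 were lower, 5.14%. These shares are the background for every list below. Lack of overlap alone was common: of the 19209 genes used, 6011 lay wholly higher in the third round and 6230 wholly lower. For a called gene it is part of the rule. Of the called genes, 75 were higher and 120 were lower by at least 8-fold. The fitted log2 ratio, from a model with genotype and round as terms, had a median of -0.0017 over all genes used and ran from -10.1 to 9.77.

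The pair of Col-0 and the pair of *TT2* OE, which share no library, were then set beside each other. Because the rounds were chosen by clustering over all genes, agreement between the pairs is in part built into that choice. Across genes, which are not independent of each other, the log2 ratios of S2 over M2 and of U2 over O2 had a Pearson correlation of 0.851 and a Spearman correlation of 0.741 (n = 19209 genes), and 77.0% of genes had the same sign in both. The difference between the 2 ratios of a gene had an SD of 0.446 on the log2 scale. Beside the 1662 called genes, 1658 passed 2-fold in a single pair, and 5 passed it in opposite directions.

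**Figure D1:**
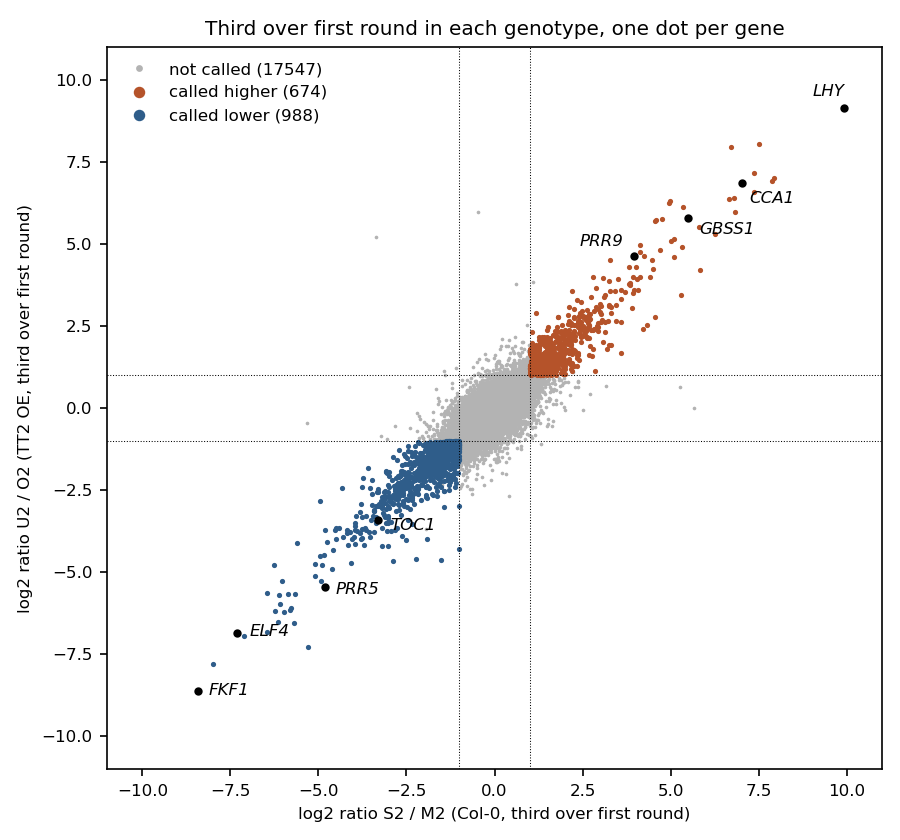
Log2 ratio of U2 over O2 (*TT2* OE, vertical axis) against that of S2 over M2 (Col-0, horizontal axis), one dot for each of 19209 genes, with the 2-fold limits dotted. By the call rule, the 674 genes called higher can lie only in the upper right corner and the 988 called lower only in the lower left. *LHY* lies far out in the first corner, at 9.93 and 9.15, and *FKF1* in the other, at -8.41 and -8.63.

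The clock genes *LHY* and *FKF1* stood at the ends of the plot of the pairs, while others, such as *ZTL* and *RVE7*, lay at its centre. Of 12 morning genes, 10 were called higher in the third round and none lower, with a median log2 ratio of 3.14. *CCA1* (AT2G46830, chromosome 2, 19245591 to 19248915 in TAIR10.1), which encodes a dawn-expressed MYB factor, stood at 682 and 668 CPM in S2 and U2, against 5.18, 3.93 and 5.77 CPM in M2, N2 and O2. The groups lay far apart, with a 123-fold difference (log2 6.95, or 7.03 in the Col-0 pair and 6.84 in the *TT2* OE pair). Its partner *LHY* (AT1G01060, chromosome 1, 33365 to 37871) reached 1039 and 970.1 CPM in S2 and U2, against 1.02, 1.26 and 1.66 CPM in the first round, a log2 ratio of 9.54. In both genes the third-round libraries lay above the first-round range, as the rule requires of called genes, and libraries of a round lay close together.

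The REVEILLE factors are relatives of CCA1, some of which activate evening genes. *RVE8*, an activator of evening genes, was at 151 and 156 CPM in S2 and U2, against 1.47, 1.74 and 1.85 CPM in the first round (log2 6.53). *RVE1*, known for its part in auxin synthesis, was at 100.2 and 137 CPM, against 9.40, 8.81 and 11.4 CPM (log2 3.50). *RVE4* was higher by a log2 ratio of 1.51 and *RVE2* by 1.31, whereas AT5G52660 and *RVE7* had ratios of 0.29 and 0.07 and were not called. The REVEILLE genes of this list were thus not all higher, since *RVE7* stood at 120 and 159 CPM in S2 and U2, inside or just above its first-round range of 116 to 149 CPM. Family members outside the list were not examined as such.

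The LNK proteins are coactivators that act with the REVEILLE factors, and all 4 of their genes were called higher. *LNK2* was at 1632 and 1551 CPM in S2 and U2, against 108, 92.5 and 135 CPM in the first round (log2 3.72). *LNK3* was at 114 and 142 CPM, against 2.75, 2.47 and 1.96 CPM (log2 5.77). The ratios of *LNK4* and *LNK1* were 2.78 and 1.61.

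The 5 pseudo-response regulators did not move together. *PRR9*, the earliest of the series in the day, was higher, at 116 and 141 CPM in S2 and U2 against 7.44, 6.22 and 5.64 CPM in M2, N2 and O2 (log2 4.31). The other 4 were lower. *PRR7* was at 108 and 111 CPM, against 337, 332 and 391 CPM in the first round, a log2 ratio of -1.73. *PRR5* was at 5.23 and 3.79 CPM, against 148, 160 and 169 CPM, with a ratio of -5.13. *PRR3* had a ratio of -4.30, from 1.16 and 1.68 CPM against 27.4 to 30.05 CPM. *TOC1* (*PRR1*), the evening repressor of *CCA1* and *LHY*, was at 20.7 and 23.55 CPM in S2 and U2, against 204, 234 and 252 CPM (log2 -3.36). All 5 genes were called, so the rule itself leaves no overlap between the rounds in any of them.

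Of 11 evening genes, 7 were called lower and none higher, with a median of -1.82. In the evening complex, *ELF4* was at 0.210 and 0.267 CPM in S2 and U2, or 20 counts over both libraries, against 41.0, 40.8 and 36.3 CPM in the first round (log2 -7.34). *LUX*, the DNA-binding subunit, was at 6.37 and 9.61 CPM, against 86.9, 105 and 97.3 CPM (log2 -3.55). *ELF3*, the scaffold, differed least of the 3 subunits (log2 -1.14), and *BOA*, a close relative of *LUX*, had a ratio of -0.94 and was not called.

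Genes of the photoperiod sensors followed the evening complex in part. *FKF1*, a blue-light receptor and F-box protein that lets *CO* be expressed, was near its detection limit in the third round, with 0.189 and 0.134 CPM in S2 and U2 (14 counts in all), against 80.9, 87.8 and 71.7 CPM (log2 -8.84). *GI*, its partner, was at 33.3 and 31.6 CPM, against 294, 303 and 303 CPM (log2 -3.20). *ZTL*, of the same F-box family and known to be regulated as a protein rather than as a transcript, stood at 57.4 and 67.9 CPM against 62.6, 65.4 and 64.0 CPM, so that the rounds overlapped. *LKP2*, the remaining family member, had a ratio of -0.20. *GRP7*, an RNA-binding protein of a slave oscillator, was at 61.5 and 92.3 CPM in S2 and U2, against 1386, 1764 and 1168 CPM (log2 -4.08), and its paralog *GRP8* had a ratio of -1.82. *CHE*, a TCP factor that binds the *CCA1* promoter, was at 46.3 and 48.6 CPM against 107, 76.9 and 60.7 CPM and was not called (log2 -0.77).

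**Figure D2:**
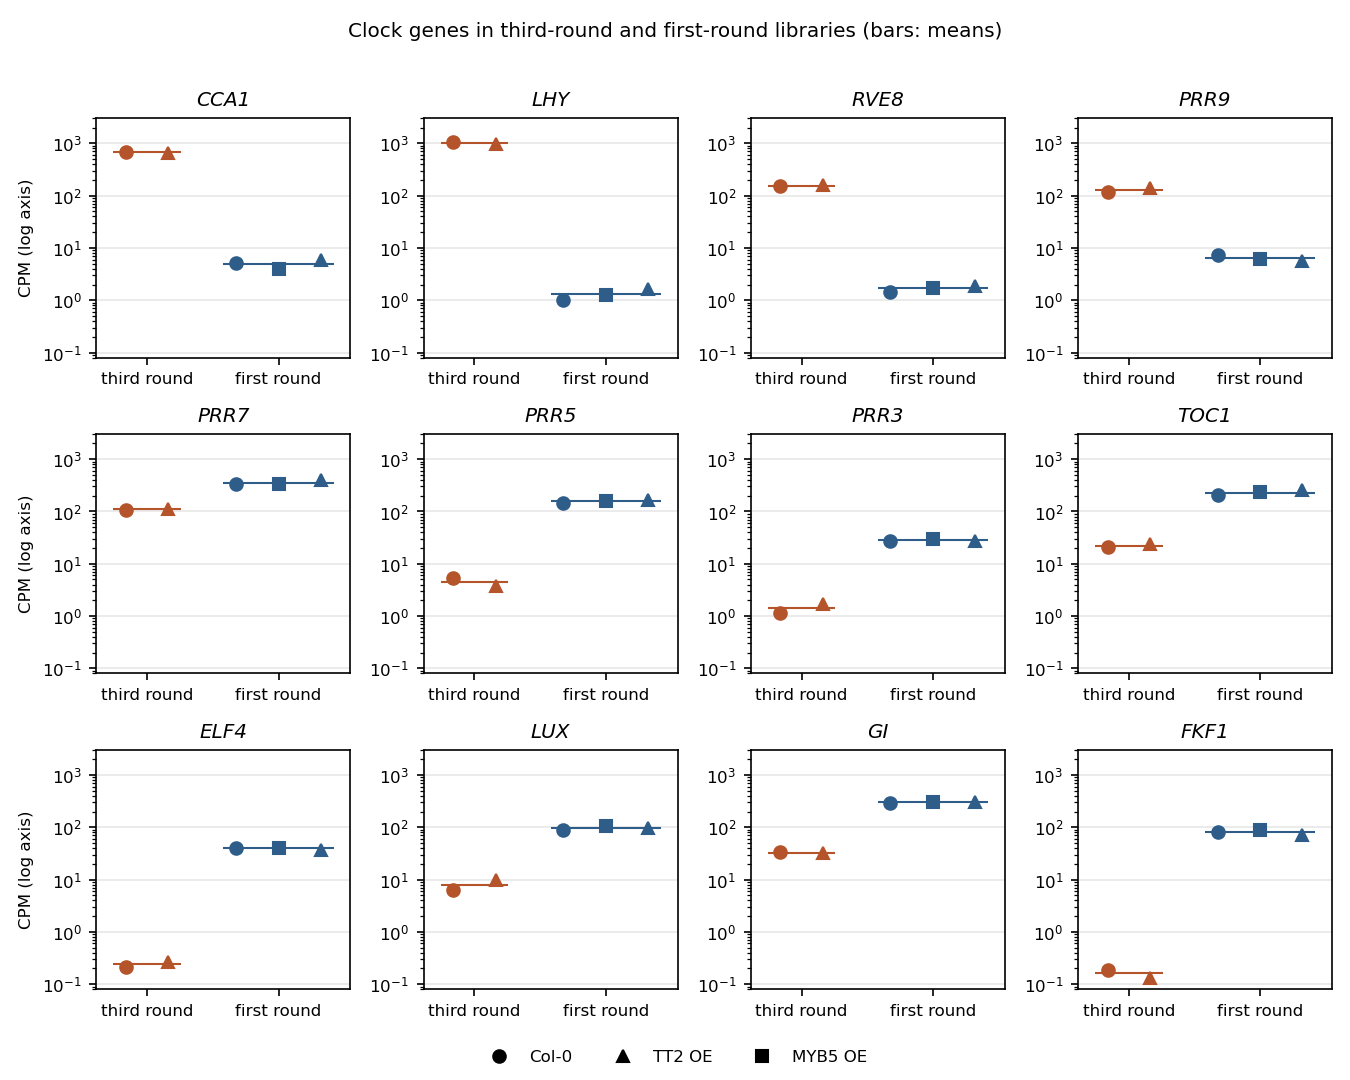
CPM (log axis) of 12 clock genes in each library, with the third round on the left and the first round on the right of each panel. Circles are Col-0, triangles *TT2* OE and squares *MYB5* OE, and bars are round means. The 4 genes of the upper row are higher in S2 and U2 and the other 8 are lower. All 12 are called genes, for which the rule requires no overlap.

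The second-round libraries were read for the same genes. Their ratios share the first-round libraries with those above and are therefore set beside them only as values. *CCA1* stood at 216, 238 and 243 CPM in P2, Q2 and R2, and *LHY* at 310, 337 and 342 CPM, between the other 2 rounds. *PRR9* was also intermediate, at 42.7 to 44.0 CPM. *TOC1*, at 19.02 to 21.9 CPM, and *PRR5*, at 2.87 to 4.45 CPM, were instead about as low in the second round as in the third. *RVE2* lay on opposite sides, at 25.2 and 27.02 CPM in S2 and U2 and at 2.37, 2.84 and 3.51 CPM in P2, Q2 and R2, against 10.4, 10.6 and 10.8 CPM in the first round. The hour of harvest, which no label gives, was not tested.

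Outputs of the clock that control flowering by day length were also apart. Of the 9 photoperiod and flowering genes used, out of 11, 6 were called higher and 2 lower (median 2.41). The CYCLING DOF FACTORs repress *CO* in the morning, and *CDF1*, *CDF2* and *CDF3* had ratios of 2.41, 2.63 and 2.05. A further Dof gene, AT1G69570, was at 35.7 and 34.4 CPM in S2 and U2, against 4.37, 5.74 and 5.51 CPM (log2 2.83). *CO*, the activator of the florigen gene, was at 0.315 and 0.587 CPM, against 3.14, 5.08 and 4.28 CPM in the first round (log2 -3.06). Its relatives went the other way: *COL2* was at 321 and 289 CPM against 2.83, 2.72 and 3.36 CPM (log2 6.62), and *COL1* at 197 and 192 CPM against 4.95, 4.83 and 6.33 CPM (log2 5.11). The florigen gene *FT* had 0 counts in S2 and U2 and 28 counts over M2, N2 and O2, which makes it at least 6.06-fold lower in the third round if its 0 is read as 3 counts over both libraries. It was below the limit for use. *SOC1*, a floral integrator, was the other gene called lower (log2 -1.73).

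The libraries kept the strand of the RNA, but whether the counting used it is not given in the sources used here, and reads of overlapping genes may be mixed. *CO* overlaps AT5G15843 on the other strand, *COL1* overlaps a noncoding RNA over its whole length, AT1G69570 overlaps a noncoding RNA over 1241 bases, and *COL2*, *LUX* and *BOA* overlap neighbours by 688 to 1896 bases. Among 299 list members and leading genes, 52 overlap a gene on the opposite strand by at least 100 bases.

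The most extreme ratios were then listed over all genes, whatever their function. With a mean of at least 5 CPM required, the 10 highest were *LHY*, *BBX30*, AT1G26790, AT1G80130, *ASG4*, *BBX32*, AT3G09450, *CCA1*, *COL2* and *RVE8*. *BBX30*, a B-box microprotein, had 1314 counts in S2 and U2 and 3 counts in the first round, a 641-fold ratio with a 95% exact interval of 219 to 3110 for counting error only. *BBX32*, a B-box protein that inhibits light signalling, was at 48.4 and 50.2 CPM in S2 and U2, against 0.157, 0.201 and 0.366 CPM (log2 7.51). *ASG4*, annotated as a homeodomain-like protein, was at 29.5 and 27.8 CPM, against 0.236, 0.151 and 0.0646 CPM (log2 7.62). AT1G26790, a Dof-type factor, was at 30.6 and 25.5 CPM, against 0.0786, 0.201 and 0.151 CPM (log2 7.85). Each of these 4 regulators was close to absence in all first-round libraries. AT1G80130, a tetratricopeptide repeat protein, and AT3G09450, of the fusaric acid resistance family, had ratios of 7.79 and 7.23.

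At the low end, the 10 lowest were *FKF1*, AT5G62360, *ELF4*, AT5G23240, *COR15B*, AT4G16146, *RbcX1*, AT2G39920, AT1G49230 and AT1G70820. AT5G62360, annotated as an invertase or pectin methylesterase inhibitor, was at 0.399 and 0.561 CPM in S2 and U2, against 113, 115 and 135 CPM (log2 -8.02). AT5G23240, a DNAJ protein, was at 0.462 and 0.587 CPM, against 70.1, 84.4 and 78.4 CPM (log2 -7.14). *RbcX1*, a chaperone for Rubisco assembly, was at 1.60 and 1.68 CPM, against 116, 137 and 158 CPM (log2 -6.36). AT1G70820, annotated as a phosphoglucomutase, was at 4.41 and 3.55 CPM, against 281, 278 and 265 CPM (log2 -6.10). All of these are called genes, for which the rule requires no overlap between the rounds. AT4G16146, AT2G39920 and AT1G49230 had ratios of -6.42, -6.32 and -6.21. AT1G49230 lies wholly within AT1G49225 on the other strand, and AT5G23240 overlaps a pseudogene over 1721 of its 1993 bases.

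Transient starch is built in the chloroplast by day and degraded at night, and many enzymes of its breakdown have transcripts that peak near dusk. Of 17 breakdown genes, 12 were called lower in the third round and 2 higher, with a median of -2.78. *GWD1*, the glucan water dikinase that opens the granule surface, was at 60.9 and 55.7 CPM in S2 and U2, against 837, 760 and 710 CPM in the first round (log2 -3.73). *PHS2*, the cytosolic glucan phosphorylase, was at 16.98 and 18.8 CPM, against 493, 461 and 415 CPM (log2 -4.66). *AMY3*, a plastid α-amylase, was at 21.1 and 22.1 CPM, against 366, 340 and 302 CPM (log2 -3.94). *SEX4*, a glucan phosphatase, was at 2.86 and 3.52 CPM, against 45.5, 45.7 and 46.4 CPM (log2 -3.85). All 4 are called genes, so the rule itself leaves no overlap between the rounds in them.

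The β-amylases split. *BAM9* (log2 3.57), whose protein is thought to be catalytically inactive, and *BAM1* (log2 1.39), known for stress-induced and guard cell starch breakdown, were the 2 genes called higher. *BAM9* was at 121 and 177 CPM in S2 and U2, against 12.6, 11.02 and 12.1 CPM. *BAM3*, the main amylase of leaf starch at night, had a ratio of 0.70 and was not called, and *BAM4*, a regulator without enzyme activity, was lower (log2 -1.24). Most breakdown genes of the list were therefore lower in transcript level, but its β-amylases as a class were not.

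In starch synthesis, 6 of 13 genes were called lower and 1 higher, with a median of -0.98. *GBSS1*, the granule-bound synthase of amylose and a known target of CCA1 and LHY, was at 264 and 235 CPM in S2 and U2, against 5.81, 4.001 and 4.18 CPM (log2 5.66). *SS4*, which initiates granules, was at 28.9 and 30.8 CPM, against 216, 195 and 207 CPM (log2 -2.83). *SBE2.1*, a branching enzyme, and *PGM1*, the plastid phosphoglucomutase, had ratios of -2.47 and -1.78. *APS1*, *ISA1* and *ISA2* made up the 6. *GBSS1* stood alone in its direction among the called synthesis genes.

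**Figure D3:**
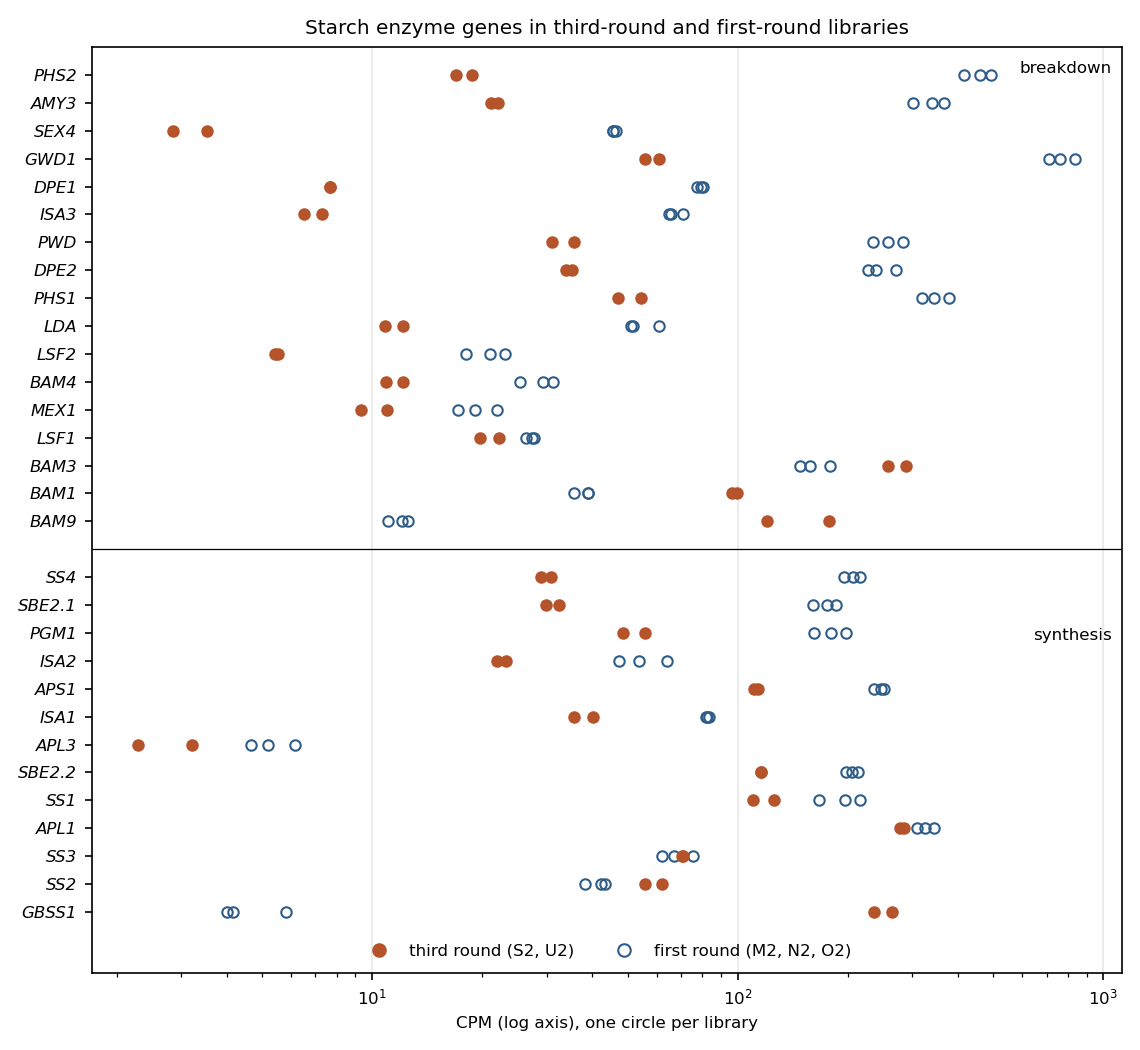
CPM (log axis) of 17 starch breakdown genes (upper block) and 13 starch synthesis genes (lower block), with filled circles for the third-round libraries and open circles for the first-round ones. Most filled circles lie left of the open ones, *PHS2* and *AMY3* by the widest margins. Those of *GBSS1*, *BAM9* and *BAM1*, and of *BAM3* and *SS2*, which were not called, lie on the other side.

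Light signalling genes held members in both directions, 5 of 16 called higher and 3 lower (median 0.71). *HYH*, a bZIP factor, was at 96.3 and 121 CPM in S2 and U2, against 5.45, 5.69 and 7.56 CPM in the first round (log2 4.07). Its homolog *HY5*, which promotes photomorphogenesis, was at 39.1 and 57.8 CPM, against 10.06, 12.9 and 12.3 CPM (log2 2.098). In the second round *HY5* stood at 11.99, 13.6 and 17.03 CPM, close to the first. *RUP1* (log2 2.13) and *RUP2* (log2 3.07), repressors of UV-B signalling, and *ELIP2* (log2 2.56), a photoprotective early light-induced protein, completed the 5. *BBX22*, a B-box partner of HY5, was lower, at 28.7 and 38.05 CPM against 141, 143 and 150 CPM (log2 -2.13), as were *FHY1* and *CRY2*, with ratios of -1.49 and -1.02.

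The PIF and shade growth list had 3 of 12 genes called higher and 1 lower, with a median of 0.51. *PIF3*, a phytochrome-interacting factor, was at 44.4 and 43.9 CPM in S2 and U2, against 14.95, 16.4 and 17.63 CPM (log2 1.44). *HFR1*, an inhibitor of PIF factors, had a ratio of 1.51. *PIL1* had a ratio of 1.48, at no more than 1.07 CPM in any of the 5 libraries. *IAA29*, an auxin-responsive repressor, was lower (log2 -1.64). The growth-promoting *PIF4* was not called, at 114 and 103 CPM against 140 to 147 CPM.

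Photosynthesis genes were mostly within 2-fold, with 20 ratios below 0 and 8 above. The share called higher, 3.57%, was close to the 3.51% of all genes. Of 28 light-harvesting and photosystem genes, 1 was called, *LHCB2.3*, at 1070 and 948 CPM in S2 and U2 against 438, 419 and 421 CPM (log2 1.23), and the list's median was -0.29. The Rubisco small subunit genes *RBCS3B* and *RBCS2B* had ratios of -1.06 and -1.01, and *LHCA5* one of -0.97, none of them called. Copies of the *LHCB1* and *RBCS* families are nearly identical, so that the split of reads among them is uncertain. In chlorophyll synthesis 4 of 15 genes were called higher and 2 lower. *GUN4*, an activator of magnesium chelatase that overlaps a neighbour over 946 of its 1296 bases, was at 453 and 473 CPM, against 121, 110 and 123 CPM (log2 1.93). *PORB*, a light-dependent protochlorophyllide reductase, was at 115 and 126 CPM, against 770, 796 and 646 CPM (log2 -2.55), whereas its homolog *PORA* was higher at a low level (log2 1.44). *PCB2*, the divinyl reductase, was lower (log2 -1.33), and *HEMA1* and *CAO*, for the first committed step and for chlorophyll b, were higher by 1.16 and 1.07. The list thus held opposite calls for consecutive steps of one pathway.

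**Figure D4:**
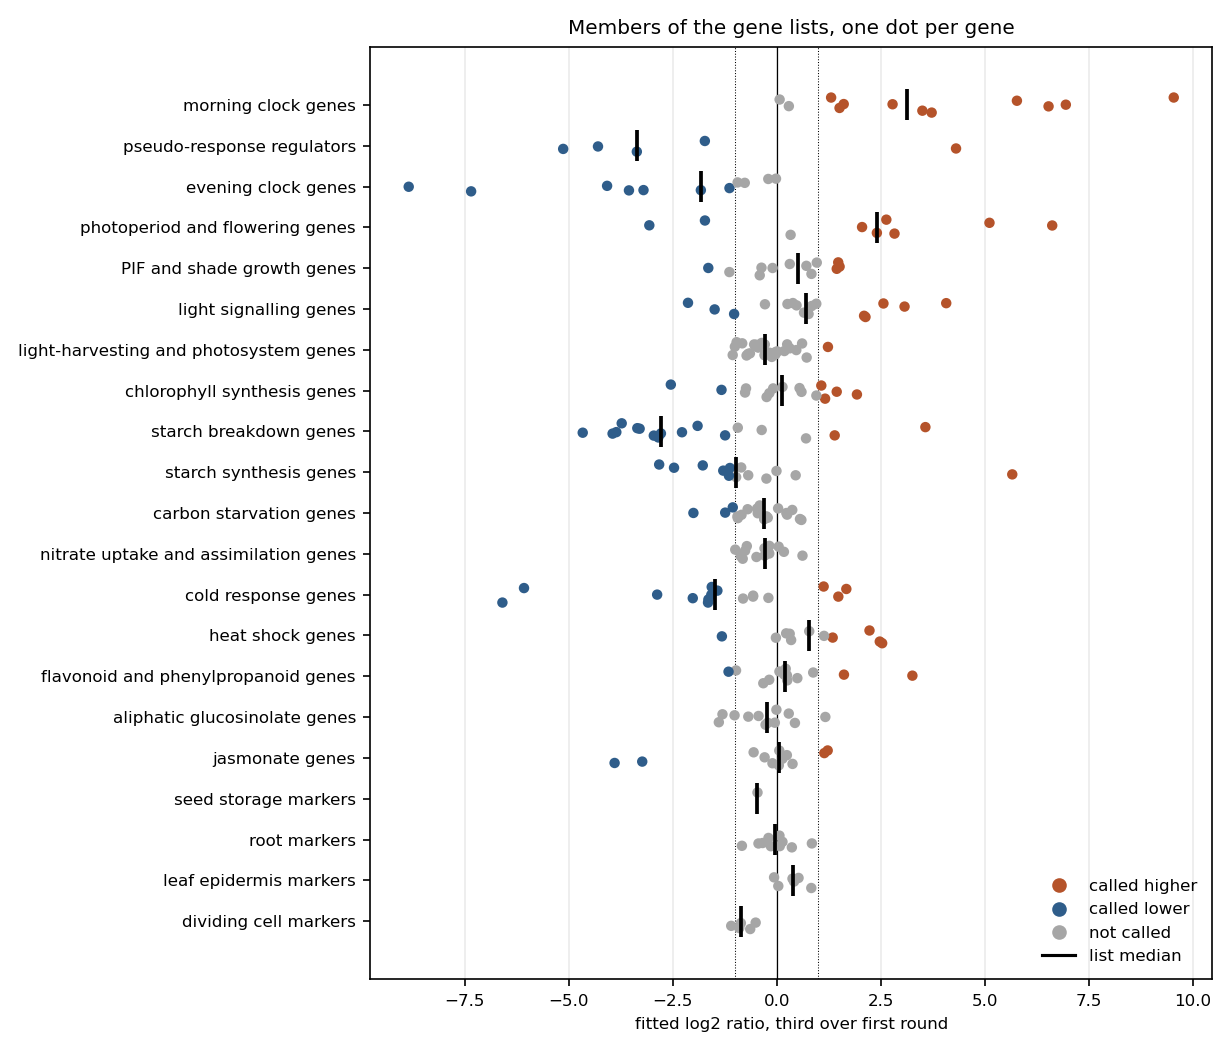
Fitted log2 ratio of the third over the first round for each used member of 21 gene lists, with list medians as black bars and the 2-fold limits dotted. Medians run from -3.36 in the pseudo-response regulators to 3.14 in the morning clock genes, and the nitrate, glucosinolate and 4 marker lists hold no called gene.

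Cold response genes were lower as a rule, 9 of the 16 used against 3 higher, with a median of -1.49. *COR15B*, which stabilises chloroplast membranes in frost, was at 0.105 and 0.0801 CPM in S2 and U2 (8 counts in all), against 10.5, 10.997 and 7.96 CPM (log2 -6.59). AT4G33980, which the annotation used here does not name, was at 0.420 and 0.320 CPM, against 25.7, 32.0 and 25.01 CPM (log2 -6.07). *COR15A* and *RD29A* had ratios of -2.87 and -2.02. These last 2 were close to their first-round level in the second round, where *RD29A* stood at 99.3, 91.0 and 66.9 CPM, against 104, 126 and 67.2 CPM in M2, N2 and O2. *CBF2*, a master regulator of cold acclimation, went against the list, at 4.75 and 4.19 CPM in S2 and U2 against 1.65, 1.99 and 1.55 CPM (log2 1.48), with *GOLS3* and *ZAT12* the other 2 genes called higher. All seedlings were kept at 22 °C per the labels. *COR15A* and *COR15B* are similar neighbours, as are the *CBF* genes, and reads may be shared among them.

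Among heat shock genes, 4 of the 11 used were called higher and 1 lower, with a median of 0.78. *HSFA2*, the heat shock factor on which the study centred, was at 0.882 and 2.08 CPM in S2 and U2, against 0.367, 0.453 and 0.237 CPM in M2, N2 and O2 (log2 2.23). The pairs differed here, with 1.17 in Col-0 and 2.90 in *TT2* OE, at low counts in every library. *HSP70* was at 74.5 and 128 CPM, against 17.5, 17.1 and 17.7 CPM (log2 2.48). *MBF1C*, a heat-induced coactivator, was at 22.5 and 36.9 CPM, against 4.71, 6.64 and 5.34 CPM (log2 2.53), and the disaggregase *HSP101* had a ratio of 1.34. In these 4 genes U2 was above S2. All first-round libraries were below both, as the rule requires of genes called higher. *DREB2A* was lower (log2 -1.32). The small heat shock genes *HSP21*, *HSP22*, *HSP23.6*, *HSP17.4* and *HSP17.6II* were below the limit for use, *HSP21* and *HSP22* with no count in any of the 8 libraries.

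Genes of carbon starvation, nitrogen and specialised metabolism were mostly within 2-fold. Of 21 carbon starvation genes 3 were called lower: *DIN10*, a sugar-repressed raffinose synthase gene (log2 -2.00), *GDH2*, for a glutamate dehydrogenase (log2 -1.24), and *TPS8*, a trehalose phosphate synthase-like gene (log2 -1.06). *DIN10* was at 296 and 346 CPM in S2 and U2, against 1164, 1590 and 1416 CPM. *TPS8* was at the limit, with ratios of -1.0006 and -1.11 in the 2 pairs, and was not called with relative log expression factors, with total counts, in the DESeq2 fit or without N2. *ERD5*, a proline dehydrogenase gene repressed by sugar, had a ratio of -0.94 without a call. No nitrate gene of the 14 used was called: *LBD37* and *LBD38*, repressors of nitrogen-responsive genes, had the most negative ratios, -0.997 and -0.87, followed by *UPM1* with -0.82.

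Of the 14 flavonoid and phenylpropanoid genes used, 2 were called higher and 1 lower, and the median was 0.21. *UGT78D2*, a flavonoid glucosyltransferase, was at 84.2 and 98.5 CPM in S2 and U2, against 9.69, 9.71 and 9.36 CPM (log2 3.26). *F3H* was higher by 1.61, though a noncoding RNA on the other strand covers 1588 of its 1681 bases, and *FLS1* was lower (log2 -1.16) at 6.26 CPM or less. *TT4*, chalcone synthase, was at 7.75 and 27.9 CPM against 19.2, 7.15 and 44.6 CPM, so that the rounds overlapped while the libraries of *TT2* OE were the highest in each. The entry genes *PAL1*, *C4H* and *4CL1* had ratios of 0.24, 0.49 and 0.06 in the third round. In the second round the same genes had ratios of 1.88, 1.54 and 2.07.

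None of the 12 aliphatic glucosinolate genes used was called. *IPMI1*, *IMD1* and *MAM3*, of methionine side-chain elongation, had ratios of -1.39, -1.30 and -1.01 at 2.19 CPM or less, and the sulfotransferase gene *SOT17* one of 1.17. In the jasmonate list 2 of 12 genes were called lower and 2 higher. *AOC2*, an allene oxide cyclase gene, was at 4.71 and 5.31 CPM in S2 and U2, against 66.0, 75.5 and 84.3 CPM (log2 -3.90). *LOX2*, of the first step of jasmonate synthesis, was at 0.672 and 1.17 CPM, against 7.44, 6.54 and 9.62 CPM (log2 -3.23). In the second round *LOX2* stood at 10.11, 6.35 and 8.64 CPM, level with the first. The repressor *JAZ9* (log2 1.22) and *MYC2*, the master factor of the response (log2 1.14), were higher. *MYC2* and AT1G32630 overlap on opposite strands over 3241 bases.

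Marker genes of tissues gave no called gene. The 10 root markers had a median of -0.04, and their summed level was 193 and 159 CPM in S2 and U2, against 143, 153 and 154 CPM in the first round, with *SCR* at 0.84 and *CYP86A1* at -0.84. The 6 leaf epidermis markers used, among them *FAMA* at 0.83, had a median of 0.40. Markers of dividing cells were all on the lower side, with ratios from -1.09 for *CDKB2;2* to -0.51 for *KNOLLE*, and summed to 30.2 and 23.3 CPM in S2 and U2, against 43.5, 48.1 and 46.5 CPM. In whole seedlings fewer cells of a type and less RNA per cell cannot be told apart, and the part of cell composition in the differences above was not tested. Of 5 seed storage markers 1 reached the limit, *CRA1*, at 0.231 and 0.748 CPM against 0.478 to 0.667 CPM. Cytosolic ribosomal protein genes were level, with 1 of 178 called, AT2G32220 (log2 1.09), and a median of 0.18.

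The promoters of the called genes differed in short elements from those of all genes. Windows of the same 300 bases were read for 668 genes called higher, 986 called lower and 19119 of all genes used, each element on both strands. The evening element was in 15.3% of windows of genes lower in the third round and in 2.25% of those higher, against 3.03% of all. Among genes lower by at least 4-fold in both pairs the share was 23.8%. The G-box CACGTG, a palindrome bound by bHLH and bZIP factors such as the PIFs and HY5, was in 16.5% of windows of genes higher and 10% of those lower, against 8.99% of all. The CCA1-binding site AAAAATCT resembles the evening element AAAATATCT in its letters, but neither string contains the other. It was in 7.78% of the higher and 10.9% of the lower genes, against 8.22% of all. The HUD box CACATG was in 17.7% of the higher and 13.5% of the lower genes, against 12.9% of all.

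Other elements were rarer among called genes than among all. The site II element TGGGCC, the core of the motif that the study followed in the *HSFA2* promoter, was in 9.43% of the windows of genes higher and 12.3% of those lower, against 18.9% of all. The telo-box AAACCCTA was in 2.1% of the higher and 4.26% of the lower genes, against 5.44% of all. These shares describe the letters in a window and not binding. Among the clock genes, *GRP7* held 3 evening elements and was lower in the third round. *PRR9* held the element and was higher, and *RVE7* and *BOA* held it without being called. The element and the direction of a gene thus did not always go together.

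**Figure D5:**
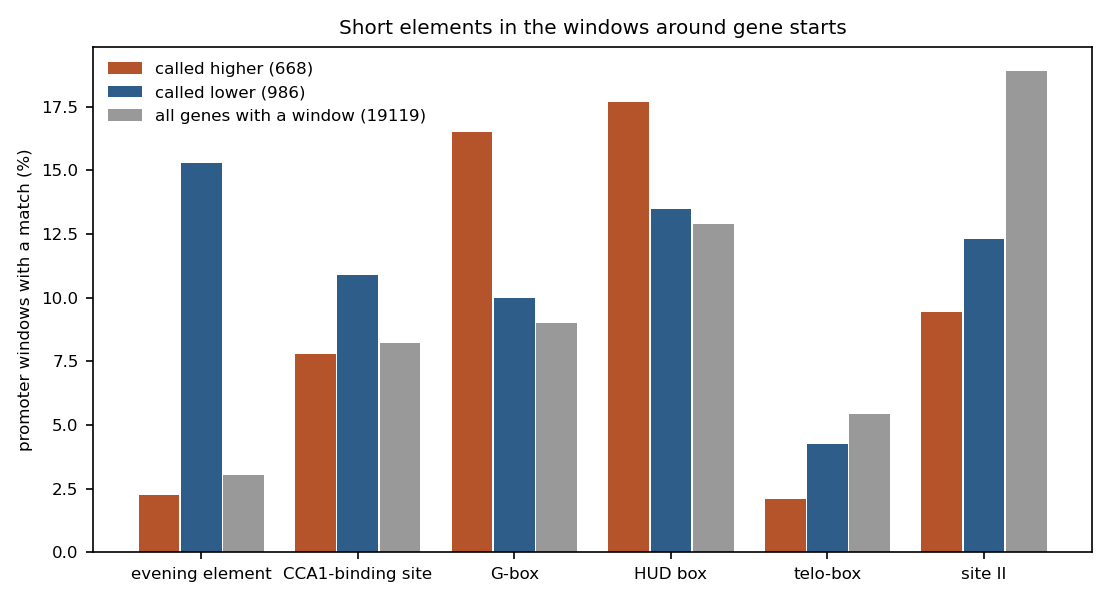
Share of promoter windows (%) with at least one match to each of 6 elements, for 668 genes called higher, 986 called lower and 19119 genes in all. The evening element stands out in the genes called lower (15.3% against 3.03% of all), the G-box in those called higher (16.5% against 8.99%), and site II is rarer in both.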

How the data were processed

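The deposited table holds counts of reads per gene, which the authors obtained by mapping reads of strand-specific libraries in CLC Genomics Workbench to TAIR10. These whole-number counts were used as deposited. Its 24 columns of normalized values, and 4 columns of a library that matches no sample, were not used. In edgeR 4.0.16 (R 4.3.3), the fit and the calls used TMM factors of the 5 libraries (0.969 to 1.04), and the CPM printed were scaled by TMM factors of all 8. Genes with a mean of at least 0.5 CPM over the 5 libraries were fitted with genotype and round as terms. Ratios of single pairs were taken with a prior count of 2, on which the ratios of sparse genes depend. No p-value was computed, because the rounds were found in these counts. The spread is that between libraries, which the study describes as independent biological replicates and the labels do not.

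The members, the lists and the call rule were chosen with earlier results of these data known. Named genes are all members of the 3 clock lists, both transgenes, the 10 called genes with the highest and the 10 with the lowest ratio at a mean of at least 5 CPM, and up to 4 members of each other list with the largest absolute ratio. Other named genes were picked after their values had been seen. Ribosomal protein genes were taken by their annotated product. Of the gene IDs, 28009 of 28496 (98.3%) matched the RefSeq TAIR10.1 annotation, from which names, coordinates and promoter windows (250 bases before to 50 after the start) were read with Python 3.11.15. The table gives no coordinates. No 2 libraries agreed within sampling noise (at least 16.8 chi-square units per gene), so none was counted as a duplicate. The calculation was tested on simulated counts. PCR copies could not be told apart, so the interval and the floor printed cover counting error alone.

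Alternatives were relative log expression factors, total counts, no filter, a filter of 5 CPM, DESeq2 1.42.0, all 8 libraries in the fit, no genotype term, a prior count of 2 in the fit, limits of 4-fold and 1.5-fold, the fitted ratio without the pairs, and each library left out in turn. Promoters were also read before the start alone and at 4-fold.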

Additional observations from a re-analysis of the deposited data

Results flagged for a closer look

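In 5 genes the Col-0 pair and the *TT2* OE pair passed 2-fold in opposite directions, and the difference between the pairs was not tested. *PIA1* (AT5G07840), an ankyrin repeat gene, had a log2 ratio of -3.369 for S2 over M2 and 5.21 for U2 over O2, from 0 and 2.51 CPM in S2 and U2, against 0.445, 3.88 and 0.0215 CPM in M2, N2 and O2. It had 0 counts in the second round. *AGL62* (AT5G60440), a MADS-box gene, had 1.332 in Col-0 and -1.08 in *TT2* OE. *MEF19* (AT3G05240), for a mitochondrial RNA editing factor, had -1.438 and 1.12. AT1G70860, of the polyketide cyclase superfamily, had -1.419 and 1.01, and AT3G06220, for a B3-like factor, had -1.088 and 1.23. All 5 genes stayed below 4 CPM in every library. No group of the 5 libraries has enough samples to look for an outlying one.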

How the results depend on the processing

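Most settings left the counts of called genes within 1.5 times those given (674 higher, 988 lower). They were 677 and 976 with relative log expression factors, 748 and 887 with total counts (which shifted the median of all genes to 0.06), 805 and 1107 without a filter, and 474 and 751 at 5 CPM. A limit of 4-fold gave 171 higher and 262 lower, and one of 1.5-fold gave 1551 and 2127. With each library left out, 680 to 1056 were higher and 981 to 1533 lower. The smallest counts came without N2. Leaving out any other library breaks a pair and the fitted ratio alone then makes the call: without U2 there were 1056 and 1487, without S2 975 and 1533, and without O2 1039 and 1465, near the 884 and 1348 that the fitted ratio gave with all 5. Of 114 named genes, 79 of them called, none changed the sign of a called ratio in any of the 16 settings. *FLS1* lost its call with total counts. Of 22 list medians 2 changed sign, those of the root markers (-0.21 to 0.25 with a library left out) and of the single seed storage marker used. The evening element stood in 11.8% of windows of genes called lower, against 2.49% of all, when only bases before the start were read. No paired analysis was possible because the labels give no replicate numbers to block on. Libraries were matched by genotype instead, in the ratios of S2 over M2 and U2 over O2 that make the call. The rounds hold 2 and 3 libraries, so a ratio rests on single libraries of a genotype. *ELF4*, *FKF1*, *COR15B*, AT2G39920 and AT1G49230 rest on 8 to 20 counts in the third round. In the first round AT1G80130, AT1G26790 and *ASG4* rest on 12 to 18 counts and *BBX30* on 3.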

Other observations

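Some genes above 5 CPM differed by round in one genotype far more than in the other, and these were picked after their values had been seen. Over all genes used, the ratios of the 2 pairs differed by at least 4-fold in 35. AT4G19112 was at 55.1 and 49.2 CPM in S2 and U2, against 76.9, 2.06 and 0.732 CPM in M2, N2 and O2. *TPS-CIN*, a terpene synthase gene, was at 26.4 and 30.3 CPM in S2 and U2, against 2.93, 0.0503 and 18.8 CPM. In both genes the libraries of the first round differed among themselves by more than those of the third. *CP1*, a cysteine proteinase gene, was at 12.4 and 0.614 CPM in S2 and U2, against 47.6, 82.0 and 8.44 CPM, and *GH9B15*, a glycosyl hydrolase gene, was at 7.86 and 0.294 CPM, against 12.2, 34.4 and 2.04 CPM. In these 2 genes the *TT2* OE library was the lowest of its round in both rounds. *FLP1*, a flowering-promoting factor-like gene, was higher in both pairs (log2 5.29 in Col-0 and 3.45 in *TT2* OE).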
